A study of Mus musculus with 12 samples.

Results

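Macrophages and dendritic cells (DC) of the intestinal lamina propria are both mononuclear phagocytes and share many surface proteins, but they differ in descent and in work. Resident macrophages (RM) arise from monocytes, stay in the mucosa, engulf microbes and dying cells and secrete IL-10, whereas conventional DC arise from a dedicated progenitor that depends on the growth factor receptor FLT3, migrate to lymph nodes and prime T cells. Runx3 is a Runt-domain transcription factor that binds DNA together with its partner CBFβ and is expressed in both populations. The data described here are those of the Runx3-deficient cells: 4 samples of Runx3Δ RM and 3 samples of Runx3Δ CD11b+ DC, chosen by the cell type and genotype in their labels, which makes 7 of the 12 arrays of the series. The question was which differences between the cell types were present without Runx3, and the 3 WT RM and 2 WT CD11b+ DC samples were used to answer it.

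All mice were 6 to 8 weeks old and, per the study's methods, on the C57Bl/6 background, and the cells came from the cecum. Runx3Δ mice carry floxed *Runx3* alleles and a Cre recombinase driven by the CD11c promoter, so the deletion is conditional although the labels write the genotype as Runx3 -/-, and it depends on CD11c expression in each cell. The controls are labelled as WT litter mates. Sorted cells of both kinds carried CD45, CD11c, MHCII and CD11b on their surface and lacked Ly6c, and F4/80 set them apart: it was present on RM and absent from CD11b+ DC. Each sample pooled cells of 3 to 4 mice, and the litter number in the labels ties RM and CD11b+ DC of litters 1, 3 and 4 together among the Runx3Δ samples, while litter 2 gave Runx3Δ RM alone. Levels are log2 intensities, compared between samples within a gene and never between genes. Differences were fitted with limma over the 35556 rows of the array, and a gene is called higher in a cell type where the p after Benjamini-Hochberg adjustment was under 0.05. In bulk RNA of sorted cells, fewer cells of a kind and less RNA per cell cannot be told apart.

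The litter number was visible in the arrays themselves. All samples are labelled as pooled male and female, but *Xist*, the RNA that silences an X chromosome in female cells, was at 10.49 to 11.33 in 4 samples in which the Y-linked genes *Eif2s3y*, *Kdm5d* and *Uty* lay at 3.03 to 4.17, and at 4.45 to 4.62 in the 4 samples of litter 3, in which these 3 genes lay at 6.43 to 8.70. The remaining 4 samples had high levels of all. RM and CD11b+ DC of 1 genotype and litter always showed the same pattern. Runx3Δ RM of litters 1 and 2 and Runx3Δ CD11b+ DC of litter 1 were the samples with high *Xist* and low Y-linked genes among the Runx3Δ samples. Litter 1 also stood apart in genes with no tie to sex. *H2-Ea*, an MHC class II chain gene, was at 9.08 in Runx3Δ RM and at 9.84 in Runx3Δ CD11b+ DC of litter 1, at 7.79 in WT RM of that litter, and at 4.14 to 4.72 in the other 9 samples. Mice of the C57BL/6 strain are known to lack expression of this gene, and whether litter 1 had another genetic background was not tested. *Gdpd3*, which encodes a phospholipase, was at 9.60, 8.64 and 9.72 in the same 3 samples and at 4.03 to 4.62 elsewhere. These genes were chosen after their values were seen, and none of them was called between Runx3Δ RM and Runx3Δ CD11b+ DC. Counts are therefore also given without the 3 samples of litter 1.

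On the first principal component of the 7 Runx3Δ samples, which held 60.8% of their variance, RM scored 20.6 to 28.4 and CD11b+ DC -37.4 to -27.6. The WT samples, which had no part in the component, fell beside their cell type, with RM at 15.7 to 27.9 and CD11b+ DC at -32.1 and -26.6. On the second component, with 18.5%, the Runx3Δ samples of litter 1 scored 28.7 (RM) and 19.7 (CD11b+ DC) and all others, WT RM of litter 1 among them, -11.7 to -4.6.

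**Figure D1:**
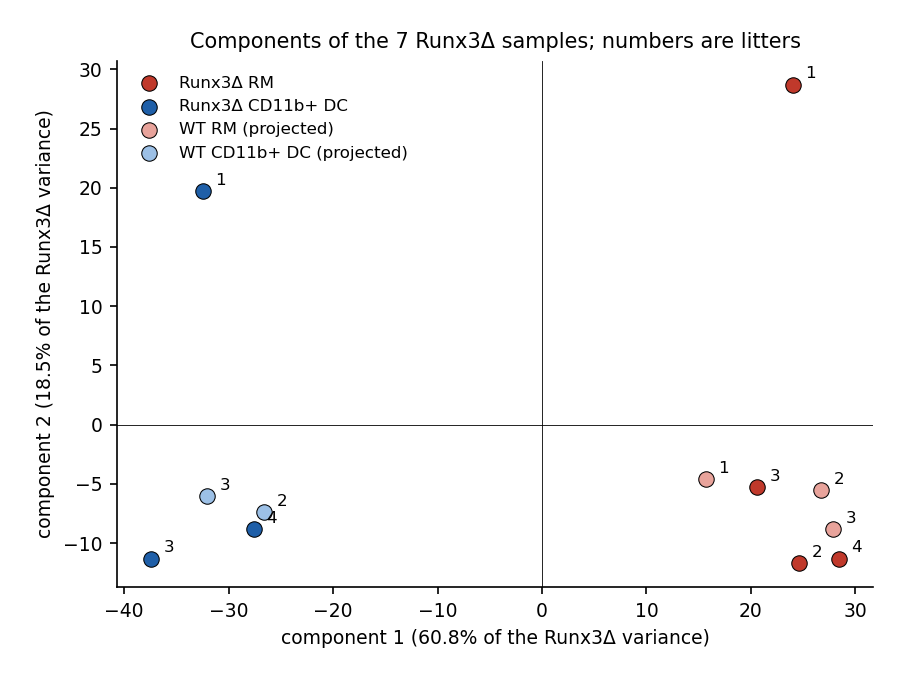
Scores of the 12 samples on the components 1 and 2 of the Runx3Δ samples, in the units of log2 level summed over 19938 genes; the percentages on the axes are shares of the variance of the 7 Runx3Δ samples, and the WT samples were projected. Numbers beside the points are litters. RM lie right of 0 and CD11b+ DC left of it in both genotypes, and both Runx3Δ samples of litter 1 lie at the top.

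Genes of the sort markers were read first. *Adgre1*, which encodes F4/80, was at 11.57, 11.86, 11.58 and 11.83 in the 4 Runx3Δ RM samples and at 9.16, 9.57 and 9.48 in the 3 Runx3Δ CD11b+ DC samples, which is no finding because F4/80 set the groups apart. *Itgam*, which encodes the CD11b required on both cell types, was at 11.33, 11.88, 11.64 and 11.76 in RM and at 10.92, 11.10 and 11.11 in CD11b+ DC (difference 0.61, standard error 0.13, adjusted p = 0.0135; 0.57 in WT, adjusted p = 0.0515), a call lost without CD11b+ DC replicate 1 (adjusted p = 0.0613). *Itgax*, the CD11c gene whose promoter drives Cre here, was at 10.61 to 11.48 in RM and 11.34 to 11.56 in CD11b+ DC and was not called (difference -0.24, standard error 0.19, adjusted p = 0.586). *Runx3* was at 10.18, 9.87, 9.88 and 9.85 in RM and at 10.14, 10.01 and 9.97 in CD11b+ DC (difference -0.10, standard error 0.12, adjusted p = 0.753). This row combines probes along the gene and the deletion removes only part of it, so the level does not measure the deletion, and how complete the deletion was in either cell type was not tested. Neither *Runx1*, the paralog, nor *Cbfb* was called (differences -0.18 and -0.13, adjusted p = 0.536 and 0.566), and *Runx2* has no row of its own here. No member of the Runx family list was called in WT either.

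Without Runx3 the cell types differed in 2108 of 19938 genes. Of these, 991 were higher in RM (4.97% of all genes) and 1117 in CD11b+ DC (5.6%), and 345 and 356 of them differed at least 2-fold. In WT, 851 genes were higher in RM (4.27%) and 833 in CD11b+ DC (4.18%). Of the 1684 genes called in WT, 1289 were called in the same direction without Runx3, 651 higher in RM and 638 higher in CD11b+ DC, which is 76.5% of the WT calls and 61.1% of the Runx3Δ calls. Among the 744 genes that were called and differed at least 2-fold in WT, 668 (89.8%) were called in the same direction in Runx3Δ. There were 394 genes called in WT alone and 818 in Runx3Δ alone, and 1 gene, *A830035O19Rik*, was called in opposite directions. A call in 1 genotype alone does not show a dependence on genotype, and 94% to 96.9% of the genes called in 1 genotype alone had a difference of the same sign in the other. Pearson's r between both sets of differences over 19938 genes was 0.855 and Spearman's rho 0.658; genes are not independent replicates, and the 2 comparisons share no sample.

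The number of calls depended on the CD11b+ DC samples, of which there were few. Without Runx3Δ CD11b+ DC replicate 1 there were 642 genes higher in RM and 861 higher in CD11b+ DC, and without replicate 2 there were 616 and 627. In WT, counts fell to 456 and 385 without CD11b+ DC replicate 1, to 355 and 451 without replicate 2, and to 546 higher in RM without RM replicate 3, and the count shared by both genotypes fell to 761 and 675 without CD11b+ DC replicates 1 and 2. Omitting litter 1 gave 998 and 1092 in Runx3Δ, 1178 and 1229 in WT and 1566 shared. Omitting the 2 Runx3Δ samples of litter 4 gave 527 and 588 and 819 shared. Each leaves as many Runx3Δ samples as the full WT groups hold, so at this number of samples the count depended on the litter left out.

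**Figure D2:**
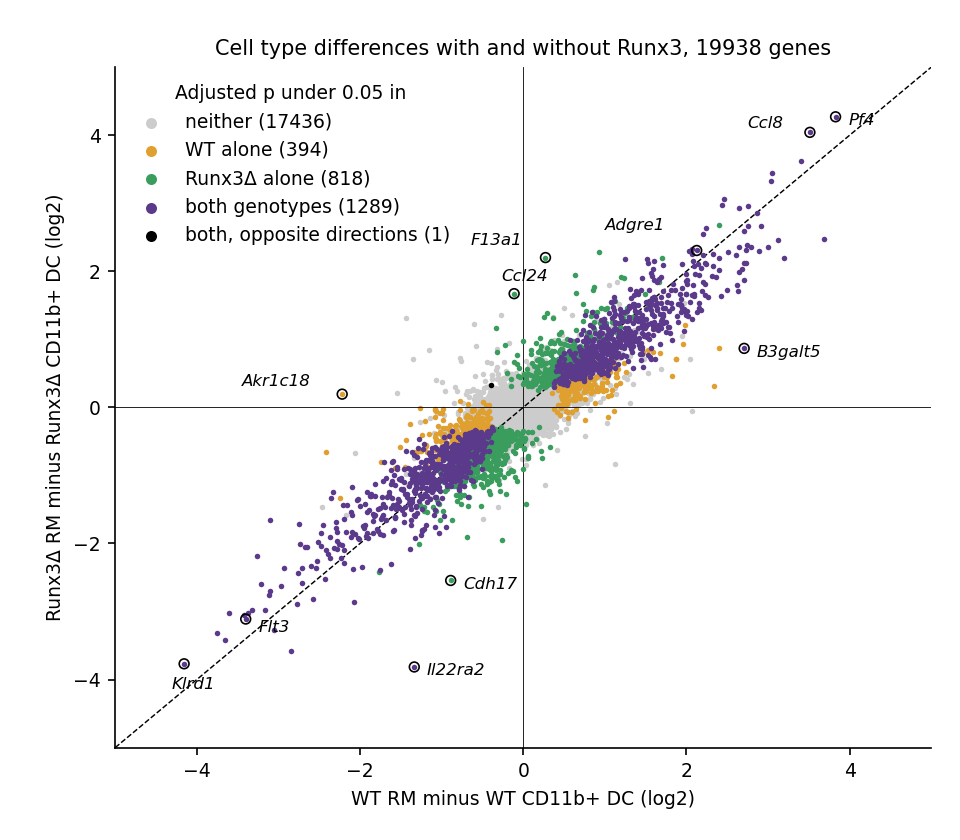
RM minus CD11b+ DC in Runx3Δ (y axis) against the same difference in WT (x axis), both as log2 differences of group means, for 19938 genes, coloured by the genotype in which the gene was called. The dashed line marks equal differences. *Il22ra2*, *Cdh17*, *Ccl24*, *F13a1*, *B3galt5* and *Akr1c18* lie away from it, and *Il22ra2* is among the 1289 genes called in both genotypes.

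The largest differences in favour of RM were in chemokines, matrix proteases and receptors of phagocytes. *Pf4*, which encodes the chemokine CXCL4, was at 9.50, 9.49, 9.59 and 9.96 in Runx3Δ RM and at 5.62, 5.25 and 5.23 in Runx3Δ CD11b+ DC, a difference of 4.27 (standard error 0.26, adjusted p = 9.35e-06), against 3.83 in WT. *Ccl8*, a chemokine that draws monocytes and T cells, was at 10.37 to 11.67 in RM and 6.77 to 7.28 in CD11b+ DC, a difference of 4.04 (standard error 0.43, adjusted p = 0.000198). The monocyte chemokine gene *Ccl7* followed with 3.45 (standard error 0.38, adjusted p = 0.000248). The largest genes were taken from those whose Runx3Δ groups did not overlap, so that the gap between RM and CD11b+ DC samples is given here and below as a description. *Ms4a7*, a tetraspan membrane protein of macrophages, was at 10.97, 10.79, 10.89 and 10.93 in RM and at 7.17, 7.09 and 7.57 in CD11b+ DC, a difference of 3.62 (standard error 0.20, adjusted p = 5.17e-06). *C3ar1*, the receptor for complement C3a, lay at 12.14 to 12.36 in RM and at 9.13, 9.10 and 9.68 in CD11b+ DC, which is 2.98 higher (standard error 0.17, adjusted p = 5.56e-06). In both genes the RM samples lay close together and far from the CD11b+ DC samples.

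*Mmp13* and *Mmp9*, which encode a collagenase and a gelatinase, were 3.32 and 3.06 higher in Runx3Δ RM (standard errors 0.24 and 0.44, adjusted p = 2.05e-05 and 0.00126). *Aoah*, an enzyme that inactivates lipopolysaccharide, was 2.93 higher, *Olfml3*, an extracellular matrix protein, 2.96, and *Abcc3*, an export pump for organic anions, 2.67. *Il10*, the anti-inflammatory cytokine of these macrophages, was at 9.71, 10.24, 10.56 and 10.66 in Runx3Δ RM and at 6.24, 7.67 and 8.38 in Runx3Δ CD11b+ DC, a difference of 2.86 (standard error 0.40, adjusted p = 0.00118). In WT the *Il10* difference was also 2.86, with RM at 11.30 to 11.45 and CD11b+ DC at 8.44 and 8.61. The litter 1 samples were the lowest of their cell type in Runx3Δ, and within litters the difference was 3.47, 2.89 and 2.27. *Saa3*, an acute phase protein, was the least even of the 12 largest, at 9.31 to 11.28 in RM and 6.82 to 8.54 in CD11b+ DC (difference 2.68, adjusted p = 0.0400), and its call was lost when any of RM replicates 1, 2 and 4 or CD11b+ DC replicates 1, 2 and 3 was left out (adjusted p = 0.0585 to 0.185).

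**Figure D3:**
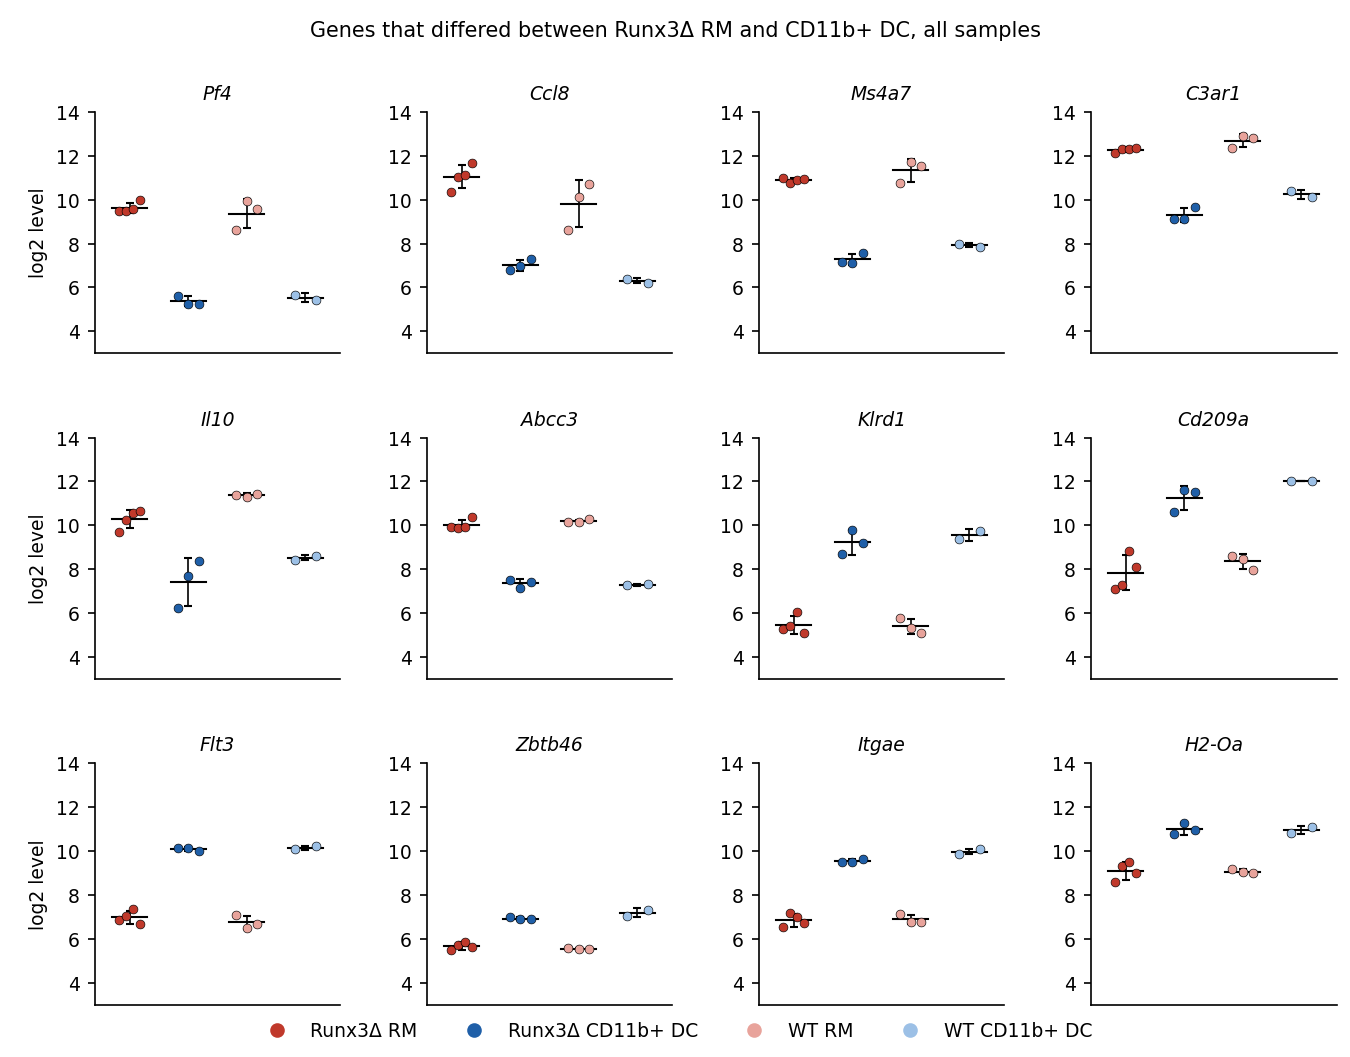
Log2 levels in each sample of 12 genes that were called between Runx3Δ RM and Runx3Δ CD11b+ DC, all of which were called in WT too. Points are samples (Runx3Δ RM n = 4, Runx3Δ CD11b+ DC n = 3, WT RM n = 3, WT CD11b+ DC n = 2), horizontal lines the mean and bars the SD. In no panel do RM and CD11b+ DC of 1 genotype overlap, which holds for nearly all called genes. In Runx3Δ these were 980 of the 991 genes higher in RM and 1115 of the 1117 higher in CD11b+ DC. In WT they were all 851 and all 833. A lack of overlap thus adds nothing to a call.

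In favour of CD11b+ DC, the largest differences were in a secreted cytokine receptor, lectin-like receptors and the DC growth factor receptor. *Il22ra2*, which encodes the secreted IL-22 binding protein, was at 8.98, 8.82 and 7.74 in Runx3Δ CD11b+ DC and at 4.51, 4.60, 5.25 and 4.45 in Runx3Δ RM (difference -3.81, standard error 0.28, adjusted p = 2.58e-05). *Klrd1*, the CD94 chain of lectin-like receptors best known on NK cells, was at 8.67, 9.81 and 9.19 in CD11b+ DC and at 5.08 to 6.05 in RM (difference -3.77, standard error 0.29, adjusted p = 2.97e-05). Its relatives *Klri2* and *Klri1* had differences of -3.32 and -3.02. *Flt3* was at 10.14, 10.14 and 9.99 in CD11b+ DC and at 6.67 to 7.36 in RM (difference -3.11, standard error 0.17, adjusted p = 5.17e-06), and *Cd209a*, a DC-SIGN relative used to mark CD11b+ DC, at 10.63, 11.61 and 11.53 against 7.11 to 8.84 (difference -3.42, standard error 0.38, adjusted p = 0.000286). In these genes the RM samples were the low group. *Scin*, which encodes an actin-severing protein, *Cd7*, a lymphoid surface glycoprotein, *Mfsd2a*, a lipid transporter, and *Bex6* and *Ifitm6* had differences of -3.02, -3.05, -2.98, -3.59 and -3.27, and the row annotated to the vomeronasal receptor gene *Vmn2r90* one of -2.98. Omitting litter 4, the call of *Klri1* was lost (adjusted p = 0.0508). The 12 largest differences in favour of CD11b+ DC were also called in WT, and 11 of the 12 in favour of RM were, with *Saa3* as the exception.

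The labelled cell types were checked against their markers. Of 17 measured macrophage markers, 15 were higher in Runx3Δ RM and 0 in Runx3Δ CD11b+ DC, with a median difference of 1.75 against 0.019 over all genes, and the same number was called in WT (median 1.54). *Selenop*, a secreted selenium carrier, was at 12.21 to 12.42 in RM and 9.91 to 10.18 in CD11b+ DC (difference 2.24, standard error 0.11, adjusted p = 3.69e-06), *Apoe*, a lipid carrier, was 1.57 higher and *Cx3cr1*, the fractalkine receptor, 2.38. *Cd163* and *Trem2*, a haemoglobin scavenger receptor and a lipid receptor, had differences of 1.84 and 1.53 that did not pass (adjusted p = 0.0564 and 0.0793). Of 14 conventional DC markers, 12 were higher in Runx3Δ CD11b+ DC and 0 in RM, with a median of -1.13, and 12 and 0 in WT (median -1.32). *Kit*, the stem cell factor receptor, was at 10.64, 10.76 and 10.48 in CD11b+ DC and at 7.65 to 8.31 in RM (difference -2.63, standard error 0.20, adjusted p = 2.69e-05), and *Zbtb46*, a transcription factor of conventional DC, at 6.97, 6.88 and 6.90 against 5.47 to 5.87 (difference -1.25, standard error 0.11, adjusted p = 5.66e-05). With 1 Runx3Δ sample left out, 14 to 16 macrophage and 8 to 10 conventional DC markers passed, with litter as a block 16 and 10, without litter 1 17 and 11, and without litter 4 14 and 8.

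Of 14 markers of CD11b+ DC (cDC2), 7 were higher in Runx3Δ CD11b+ DC and 1 in RM. *Itgae*, the integrin chain CD103, was at 9.48, 9.51 and 9.64 in CD11b+ DC and at 6.52 to 7.18 in RM, a difference of -2.70 (standard error 0.16, adjusted p = 5.87e-06). *Clec4a4*, the DC inhibitory receptor DCIR2, differed by -2.86 and *Cd101*, an inhibitory surface protein, by -2.05. The member that went the other way was *Sirpa*, the inhibitory receptor for CD47, with 0.62 more in RM. Among 10 cDC1 markers, *Wdfy4*, which serves cross-presentation, *Xcr1*, the receptor for XCL1, and *Clec9a*, a receptor for dead cells, were higher in CD11b+ DC (differences -1.92, -1.66 and -1.27), and 1, *Cadm1*, an adhesion molecule, was higher in RM. The gate required CD11b and, per the labels, did not use CD103, and the part of other DC in these values was not tested.

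The machinery of uptake and breakdown was on the side of the RM. Of 15 measured genes for the clearance of dying cells, 9 were higher in Runx3Δ RM and 3 in Runx3Δ CD11b+ DC (6 and 2 in WT). *Stab1*, a receptor for phosphatidylserine, was at 8.74 to 9.37 in RM and 6.50 to 6.74 in CD11b+ DC (difference 2.36, standard error 0.21, adjusted p = 7.23e-05), and *Itgb5*, an integrin chain of the same process, was 2.35 higher. *Timd4*, another phosphatidylserine receptor, went the other way, at 7.66, 8.07, 8.35 and 7.88 in RM and 9.84, 9.95 and 9.63 in CD11b+ DC. The difference was -1.82 (standard error 0.17, adjusted p = 0.000106) and -1.24 in WT. Of 26 lysosomal genes, 17 were higher in RM and 0 in CD11b+ DC (19 and 0 in WT, median 0.73 in Runx3Δ and 0.77 in WT). The cathepsin gene *Ctsl* was 2.06 higher, the protease gene *Lgmn* 1.28 and *Cd63*, a lysosomal tetraspanin, 1.59. In cholesterol and lipid handling 6 of 15 genes were higher in RM and 0 in CD11b+ DC, with *Abca1*, the cholesterol exporter, at 10.97 to 11.13 against 8.53 to 9.17 (difference 2.25, standard error 0.16, adjusted p = 1.76e-05).

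Receptors of innate recognition followed the same direction. Of 14 complement genes 9 were higher in Runx3Δ RM and 0 in CD11b+ DC (7 and 0 in WT), of 8 Fc receptor genes 6 and 0 (5 and 0), and of 15 Toll-like receptors and partners 11 and 0 (10 and 1). *C1qa*, a chain of the C1q initiator of complement, was 1.96 higher (standard error 0.14), and *C6*, a component of the membrane attack complex, was at 6.18, 6.39, 6.52 and 6.61 in RM and at 4.39, 3.98 and 4.30 in CD11b+ DC (difference 2.20, standard error 0.15, adjusted p = 1.63e-05). *C6* had a larger difference in WT, 3.19, with RM at 7.22 to 7.53, and the test of the difference between genotypes did not pass (unadjusted p = 0.00129, adjusted p = 1.00). *Fcgr4*, *Fcgr3* and *Fcgr2b*, receptors for IgG, were 2.08, 1.72 and 1.26 higher in RM. *Tlr12*, *Tlr7* and *Tlr9*, which sense microbial profilin and nucleic acids, were 1.81, 1.93 and 0.96 higher in RM. Without Runx3Δ CD11b+ DC replicate 1, 8 of the 15 Toll-like receptors and partners passed. Among 17 scavenger receptors and lectins 9 were higher in RM, such as *Msr1* with 2.03 and *Mrc1*, the mannose receptor, with 2.18, and 2 in CD11b+ DC.

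Most of the called chemokines were higher in RM. Of 20 measured, 11 were higher in Runx3Δ RM and 2 in Runx3Δ CD11b+ DC (9 and 2 in WT). Beside *Pf4*, *Ccl8* and *Ccl7*, the neutrophil chemokine gene *Cxcl1* was 1.87 higher in RM and *Ccl12*, another monocyte chemokine, 2.48. The chemokines of CD11b+ DC were *Ccl17*, at 8.90, 9.68 and 9.75 in CD11b+ DC and 6.68 to 7.85 in RM (difference -2.19, standard error 0.27, adjusted p = 0.000483), and *Ccl22*, with a difference of -1.44 (standard error 0.19, adjusted p = 0.000784), both of which act on CCR4 of T cells. Of 15 chemokine receptors 3 were higher in each cell type, but those higher in RM fell to 1 without RM replicate 2 or 4 or CD11b+ DC replicate 1 or 2. Among 25 cytokines and cytokine receptors 5 were higher in RM, *Igf1*, a growth factor, with 2.63 and *Il10* among them, and 1, *Il22ra2*, in CD11b+ DC. With litter as a block 8 were higher in RM, without RM replicate 2 there were 3, and without RM replicate 4 or CD11b+ DC replicate 1 or 2 there were 2.

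**Figure D4:**
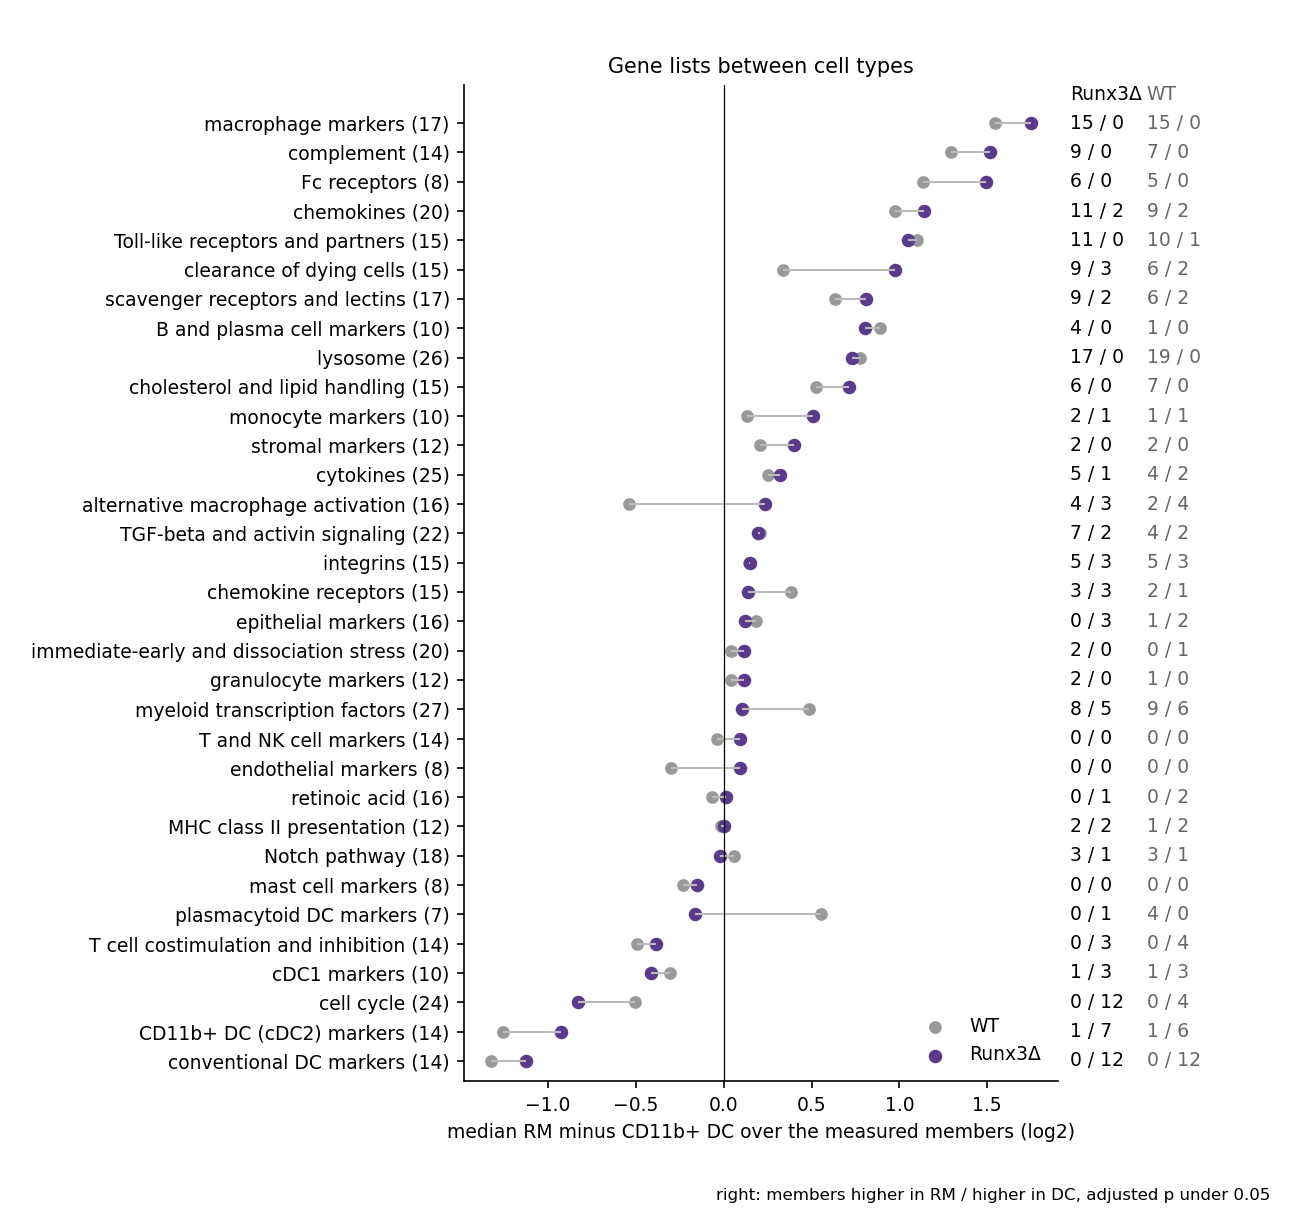
Median difference between RM and CD11b+ DC (log2, positive for higher in RM) over the measured members of each gene list in Runx3Δ and in WT, with the number of measured members in parentheses. The numbers at the right count the members called higher in RM and in CD11b+ DC. Macrophage markers lie at the top (15 and 0 called in both genotypes) and conventional DC markers at the bottom (0 and 12 in both genotypes).

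Genes of T cell priming were called in part. Of 14 genes of T cell costimulation and inhibition 3 were higher in Runx3Δ CD11b+ DC and 0 in RM (4 and 0 in WT). Over all genes 5.6% were higher in Runx3Δ CD11b+ DC. The median of the list was -0.39, with 11 members below 0 and 3 above. An unadjusted limma p under 0.05 was found for 9 of the 14, against 22.5% of all genes. With litter as a block 6 passed, without RM replicate 3 there were 5, and 1 passed without CD11b+ DC replicate 2 or 3 or without litter 4. *Cd200* and *Icosl*, an inhibitory ligand and the ligand of ICOS, had differences of -1.01 and -0.69, and both calls were lost without CD11b+ DC replicate 2 (adjusted p = 0.0591 and 0.175) or 3 (0.0621 and 0.118), that of *Icosl* also without RM replicate 1, 2 or 4 (0.0765 to 0.0807). *Tnfsf4*, the OX40 ligand, was at 7.83, 7.26 and 7.45 in CD11b+ DC and at 5.48 to 5.55 in RM (difference -2.01, standard error 0.38, adjusted p = 0.00735). Omitting litter 4, its call was lost (adjusted p = 0.0623), as were those of *Cd200* and *Icosl* (0.129 and 0.195). The gene of this list that passed there was another. Of 12 measured genes of MHC class II presentation 2 were called in each direction, and 1 in each without CD11b+ DC replicate 2, and the median difference was 0.003. *H2-Aa*, a class II chain, was at 13.28 to 13.34 in RM and 13.20 to 13.29 in CD11b+ DC (adjusted p = 0.699), while *H2-Oa*, which encodes a chain of the peptide-editing inhibitor H2-O, was at 10.77, 11.30 and 10.97 in CD11b+ DC and at 8.57 to 9.49 in RM (difference -1.92, standard error 0.20, adjusted p = 0.000179). MHCII was part of the gate of both cell types. Of 24 cell cycle genes 12 were higher in Runx3Δ CD11b+ DC and 0 in RM, against 4 and 0 in WT, with a median of -0.83 and -0.50. *Ube2c*, a ubiquitin-conjugating enzyme of mitosis, had a difference of -1.16 (standard error 0.18, adjusted p = 0.00195), and *Tk1* and *Tyms*, enzymes of thymidine synthesis, differed by -0.74 and -1.01. None of the 24 genes passed the test of the difference between genotypes by limma, and 0 had an unadjusted p under 0.05 there. In 21 of the 24 the difference was lower in Runx3Δ than in WT, and in 3 it was higher. Without CD11b+ DC replicate 2 or 3 there were 7 cell cycle genes in Runx3Δ. Omitting litter 1 gave 16 and omitting litter 4 gave 4, the WT count. Each leaves as many Runx3Δ samples of both cell types as the full WT groups hold.

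Transcription factors and signals that shape these cells were divided between the cell types. Of 27 myeloid transcription factors 8 were higher in Runx3Δ RM and 5 in Runx3Δ CD11b+ DC (9 and 6 in WT). *Maf*, which holds macrophages in their mature state, was at 8.66 to 9.16 in RM and 6.92 to 7.17 in CD11b+ DC (difference 1.75, standard error 0.20, adjusted p = 0.000315), and *Cebpb*, an inflammatory C/EBP factor, was 1.11 higher. TGF-β, a signal that RUNX proteins act with, had both of its signaling receptors higher in RM. *Tgfbr1* was at 10.42 to 10.78 in RM and 8.64 to 8.96 in CD11b+ DC (difference 1.80, standard error 0.15, adjusted p = 5.82e-05), and *Tgfbr2* was 1.12 higher (standard error 0.14, adjusted p = 0.000555). *Lrrc32*, which tethers latent TGF-β to the cell surface, was higher in CD11b+ DC (difference -1.06). Of 22 TGF-β and activin genes, 7 were higher in RM and 2 in CD11b+ DC, against 4 and 2 in WT. Omitting litter 4 gave 4 and 1, and omitting litter 1 gave 7 and 2. Each leaves as many Runx3Δ samples as the full WT groups hold. Without CD11b+ DC replicate 2, 1 was higher in CD11b+ DC. In the Notch pathway 3 of 18 genes were higher in RM, with *Notch1* at 1.57 and the Notch regulator *Dtx4* at 1.35. In CD11b+ DC it was 1, the ligand gene *Jag2* (2 without CD11b+ DC replicate 1, 0 without litter 4). WT gave 3 and 1 as well. Over all genes 4.97% were higher in Runx3Δ RM and 5.6% in Runx3Δ CD11b+ DC. Among 15 integrins 5 were higher in RM, led by *Itga9* with 2.59, and 3 in CD11b+ DC, led by *Itgae*. Of 16 retinoic acid genes 0 were higher in RM and 1 in CD11b+ DC, about the share over all genes (0 and 2 in WT). This was *Dhrs9*, a retinol dehydrogenase (difference -1.34, adjusted p = 0.00233). *Aldh1a2*, the retinoic acid synthase of DC, had a difference of -1.34 that did not pass in Runx3Δ (adjusted p = 0.0751; 0.0155 with litter as a block) and one of -2.25 that passed in WT (adjusted p = 0.0190).

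No gene passed the test of whether the cell type difference depended on Runx3. In limma the lowest adjusted p of this interaction over all rows was 0.83, and 724 genes (3.63%) had an unadjusted p under 0.05. With adjusted p-values the count of called genes was 0 (0% of 19938) in every alternative that could be computed, an unmoderated test as the study's methods name and the fits with litter as a block among them. At the thresholds of those methods, a fold of 1.5 and an unadjusted p of 0.05, 134 and 131 genes of the limma fit passed. The standard errors of the interaction for the 12 genes named by it lay between 0.25 and 0.70. A p that misses the threshold does not show that the differences were alike. The genes that follow had the largest interactions at an unadjusted p under 0.01, apart from *F13a1*, and none of them passed.

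*Il22ra2* was at 4.45 to 5.25 in Runx3Δ RM and at 7.74 to 8.98 in Runx3Δ CD11b+ DC, but at 6.60, 7.01 and 6.62 in WT RM and at 8.16 and 7.99 in WT CD11b+ DC, so that the difference was -3.81 in Runx3Δ and -1.33 in WT (unadjusted p = 0.000161, adjusted p = 0.83). Every Runx3Δ RM sample lay below every WT RM sample, while the CD11b+ DC samples of both genotypes overlapped. *Cdh17*, an intestinal cadherin, was at 5.84 to 6.35 in Runx3Δ RM and 8.87, 8.69 and 8.34 in Runx3Δ CD11b+ DC, while both WT CD11b+ DC samples lay below these 3, the lower of them at 6.35 (difference -2.54 in Runx3Δ and -0.89 in WT, unadjusted p = 0.00484, adjusted p = 1.00). *Pla2g4e*, a cytosolic phospholipase A2, was at 5.52 to 6.60 in Runx3Δ CD11b+ DC and at 4.23 to 4.70 in all other samples (-1.41 and 0.03, unadjusted p = 0.00093, adjusted p = 1.00). For *Cdh17* and *Pla2g4e* the Runx3Δ CD11b+ DC samples were thus the group that stood apart. *B3galt5*, a galactosyltransferase, had a difference of 0.87 in Runx3Δ and 2.71 in WT (unadjusted p = 9.51e-05, adjusted p = 0.83), with RM at 4.94 to 5.39 in Runx3Δ and 6.83 to 7.52 in WT. Its call in Runx3Δ was lost without RM replicate 3 or 4 or CD11b+ DC replicate 2 or 3 (adjusted p = 0.0585 to 0.0839). *Ccl12* and *Adgrl3*, an adhesion receptor, were likewise less different in Runx3Δ, at 2.48 against 3.69 and at 0.45 against 1.83.

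In the other direction, *Ccl24*, a chemokine for eosinophils, was at 9.20, 9.60, 9.56 and 9.94 in Runx3Δ RM and 7.28, 7.96 and 8.46 in Runx3Δ CD11b+ DC, and at 6.25 to 7.05 in all 5 WT samples (difference 1.67 in Runx3Δ, adjusted p = 0.00350, and -0.11 in WT; interaction 1.78, standard error 0.43, unadjusted p = 0.00176, adjusted p = 1.00). Both Runx3Δ cell types thus lay above the WT samples. *Cd209c*, a relative of *Cd209a*, was at 7.94 and 7.86 in WT CD11b+ DC and at 6.35, 6.85 and 6.64 in Runx3Δ CD11b+ DC (-3.10 and -1.65, unadjusted p = 0.000112, adjusted p = 0.83), and *Akr1c18*, a steroid dehydrogenase, at 7.34 and 6.86 against 4.30, 4.98 and 4.89 (-2.22 and 0.19, unadjusted p = 0.00554, adjusted p = 1.00). *F13a1*, the coagulation factor XIII chain found in monocytes, was called in Runx3Δ alone, with RM at 7.95 to 8.86 and CD11b+ DC at 5.65, 6.61 and 6.93 (difference 2.20, adjusted p = 0.0147), but its call was lost without Runx3Δ CD11b+ DC replicate 1 (adjusted p = 0.0672) and the interaction did not pass (unadjusted p = 0.0233, adjusted p = 1.00). *Ms4a8a*, *Dok2* and *Kcnq1* had interactions of 1.48, 1.44 and 1.26 and were not called in Runx3Δ (adjusted p = 0.102, 0.171 and 0.990; 0.0172, 0.0269 and 0.915 with litter as a block).

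**Figure D5:**
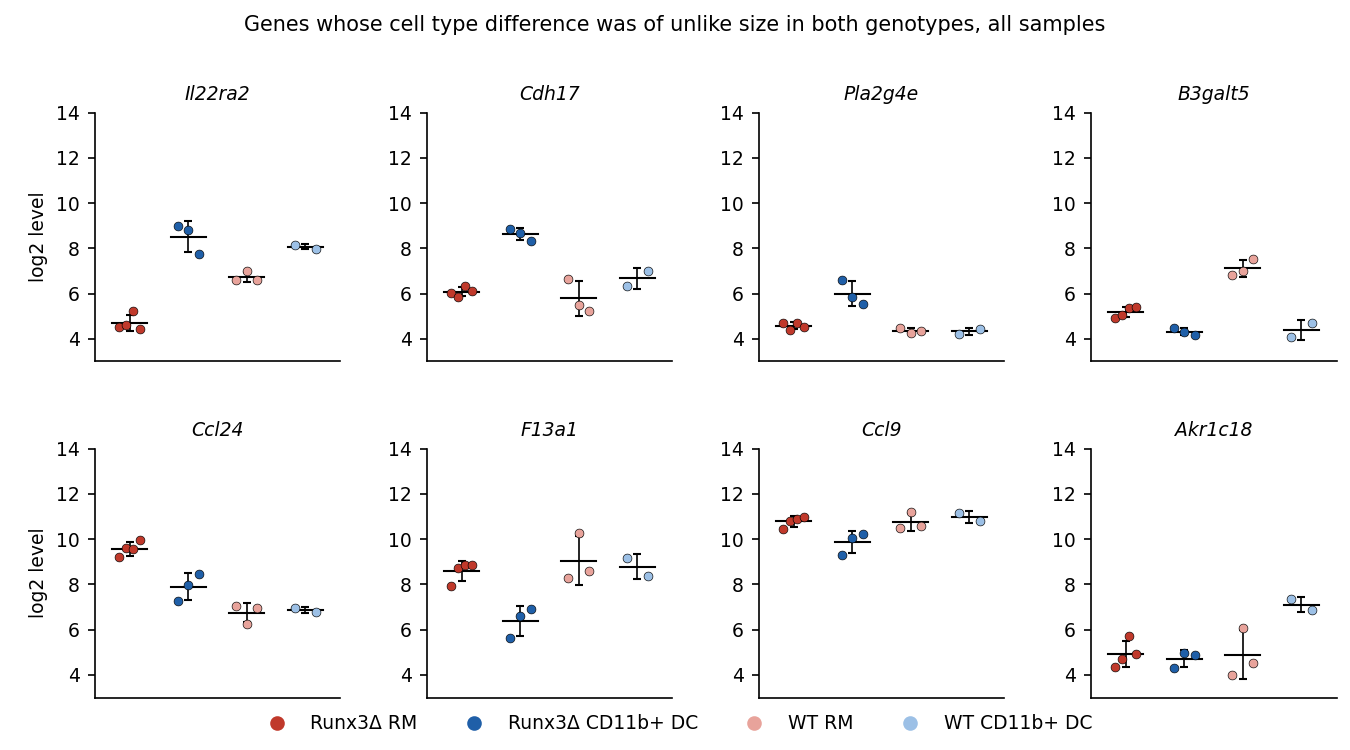
Log2 levels in each sample of 8 genes whose difference between RM and CD11b+ DC was of unlike size in Runx3Δ and WT; none passed the test of that dependence. Points are samples (n = 4, 3, 3 and 2), horizontal lines the mean and bars the SD. *Ccl24* is high in both Runx3Δ cell types, *B3galt5* in WT RM and *Pla2g4e* in Runx3Δ CD11b+ DC.

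Some gene lists had median differences of opposite sign in the genotypes. For 16 genes of alternative macrophage activation the median was 0.24 in Runx3Δ (4 higher in RM, 3 in CD11b+ DC) and -0.54 in WT (2 and 4). Of these, 15 had a larger value in Runx3Δ and 7 an unadjusted interaction p under 0.05, against 3.63% of all genes. Among the 20 chemokines the numbers were 16 and 7. Members of a list are not independent replicates. The mean level of the 16 genes was 8.28 to 9.02 in Runx3Δ CD11b+ DC and 8.88 to 9.05 in WT CD11b+ DC. In RM it was 8.70 to 9.35 in Runx3Δ and 8.27 to 8.75 in WT. Of 7 plasmacytoid DC markers 4 were higher in WT RM and 0 in Runx3Δ RM, and 1, *Ccr9*, a gut-homing receptor, was higher in Runx3Δ CD11b+ DC (difference -1.45, adjusted p = 0.00321). The genes called in WT were *Tcf4*, *Ly6d*, *Bst2* and *Cox6a2*. *Tcf4*, the E protein of plasmacytoid DC, was at 9.26 to 9.46 in WT RM and 8.75 to 8.97 in Runx3Δ RM. Its difference was 0.75 in WT (adjusted p = 0.00593) and 0.31 in Runx3Δ (adjusted p = 0.136, and 0.0299 with array weights). That of *Ly6d* was 1.58 in WT, close to the threshold (adjusted p = 0.0498), and 0.81 in Runx3Δ (adjusted p = 0.238). All 7 measured markers had a lower difference in Runx3Δ than in WT, with a median interaction of -0.58. By limma 2 of them had an unadjusted interaction p under 0.05. A call in WT alone does not show a loss of a marker without Runx3. None of the genes of either list passed the interaction by limma.

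Markers of other cells were also read. All 10 B and plasma cell markers and all 12 stromal markers had differences above 0 in Runx3Δ, with medians of 0.81 and 0.40 (0.89 and 0.21 in WT). Of the 10 B and plasma cell markers 4 were higher in Runx3Δ RM and 0 in CD11b+ DC (1 and 0 in WT), and their mean level was 8.20 to 8.67 in Runx3Δ RM and 7.39 to 7.92 in Runx3Δ CD11b+ DC. *Cd79a* and *Cd79b*, chains of the B cell receptor, were 1.32 and 1.12 higher in RM, and both calls were lost without RM replicate 2 or 3 or CD11b+ DC replicate 2 or 3 (adjusted p = 0.0570 to 0.111). Without RM replicate 2 or 3 or CD11b+ DC replicate 3, 1 of the 10 passed, and without CD11b+ DC replicate 2 or without litter 4, 0. Of 16 epithelial markers 3 were higher in CD11b+ DC, and these were cell surface adhesion proteins: *Cdh1* (E-cadherin, difference -2.60, standard error 0.12, adjusted p = 3.69e-06), *Cdh17* and *Epcam* (-1.04), whereas the keratin and mucin genes *Krt8*, *Krt18* and *Muc2* had differences of 0.13, 0.11 and 0.59 and were not called. With litter as a block, *Elf3*, *Krt19* and *Lgals4* were also higher in RM (adjusted p = 0.0275, 0.0392 and 0.0425). These 6 keratin, mucin and other epithelial genes were chosen after their values were seen. Of 12 stromal markers 2 were higher in RM, *Col14a1* with 1.43 and *Acta2* with 0.77, and the latter was lost with litter as a block (adjusted p = 0.0586) and without RM replicate 3 or 4 or CD11b+ DC replicate 2 or 3 (0.0540 to 0.0938). Of 12 granulocyte markers 2 were higher in RM, with *Csf3r*, the G-CSF receptor, at 1.41. The other, *S100a8*, was at 4.45 to 4.57 in RM and 4.09 to 4.15 in CD11b+ DC, and its call was lost without RM replicate 2, 3 or 4 or CD11b+ DC replicate 1, 2 or 3 (adjusted p = 0.0535 to 0.0819). By limma 0 of 14 T and NK cell, 0 of 8 endothelial and 0 of 8 mast cell markers were called (2, 2 and 1 at an unadjusted p under 0.05, and 0 of each with litter as a block). In RM, 1 T and NK cell marker passed without RM replicate 4 or CD11b+ DC replicate 1, and 1 endothelial marker without RM replicate 3. In CD11b+ DC, 1 endothelial marker passed without CD11b+ DC replicate 2, and 2 mast cell markers without RM replicate 4. Of 10 monocyte markers *Thbs1* and *F13a1* were higher in RM and *Plac8* in CD11b+ DC; 1 was higher in RM without CD11b+ DC replicate 1 and 4 without CD11b+ DC replicate 3. Of 20 immediate-early and dissociation stress genes 2 were higher in RM, *Ier3* (0.95) and *Socs3* (0.63), the latter lost without RM replicate 2, 3 or 4 or CD11b+ DC replicate 1 or 2 (adjusted p = 0.0542 to 0.0934). The part of other cells in the differences above was not tested.

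RUNX proteins bind a short core motif, and the promoters of the genes that differed between Runx3Δ RM and Runx3Δ CD11b+ DC were searched for it. The letters were TGTGGT or its reverse complement ACCACA, in windows from 250 bases before to 50 after each RefSeq start site (GRCm38.p6). Windows of genes higher in Runx3Δ RM held it in 14.4% (153 of 1062) and those of genes higher in Runx3Δ CD11b+ DC in 13.7% (160 of 1168), against 14.2% of 19177 windows of all measured genes and 16.8% of 32851 windows in the reference. For genes called in both genotypes the shares were 15.5% and 15.1%, and for those called in Runx3Δ but not in the same direction in WT 12.4% and 11.7%. Of the 24 genes with the largest differences, 16 had a window and 4 held the motif before the start site. Their sites are shown, with the motif in capitals, each read on the strand of the gene. Those of *Mmp13* (chr9:7272376-7272421, plus strand) and *Aoah* (chr13:20794049-20794094, plus strand), higher in RM, and of *Bex6* (chr16:32179687-32179732, plus strand) and *Ifitm6* (chr7:141016926-141016971, minus strand), higher in CD11b+ DC, start 118, 44, 93 and 59 bases before the RefSeq start.
Mmp13: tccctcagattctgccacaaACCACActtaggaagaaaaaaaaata
Aoah: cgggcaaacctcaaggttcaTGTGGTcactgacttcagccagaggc
Bex6: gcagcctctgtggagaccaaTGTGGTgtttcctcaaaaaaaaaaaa
Ifitm6: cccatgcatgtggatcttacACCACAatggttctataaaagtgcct
A match is a description of the letters in this window and not a binding site, and no match says only that these letters are not in it.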

How the data were processed

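Total RNA of sorted cecal cells was hybridised to Affymetrix mouse arrays, 1 per sample; the study's methods name an exon array and the platform record a gene-level one. The deposited values are log2 intensities that the authors summarised per row by RMA with GC correction in Partek; the processing notes name mm9. Only differences within these values were used, and probe-level background cannot be revisited. Depth has no meaning for arrays, and the number of arrays limits the precision.

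All 12 arrays were fitted as 4 groups with limma 3.58.1 (lmFit and eBayes, R 4.3.3), over 35556 rows, with Benjamini-Hochberg adjustment and a threshold of 0.05. A gene was read from its brightest row; 21789 rows had 1 symbol, 1621 several and 12146 none, which left 19938 genes. The study's methods use a one-way ANOVA with a fold of at least 1.5 and p of at most 0.05, and an unmoderated test of this kind was run as an alternative with adjusted p. The labels give litters, and same-litter Runx3Δ samples deviated together from their group means (r = 0.0958 to 0.3582 in 3 pairs, -0.257 to 0.1115 in 9 pairs of different litters). Each sample being a pool, p-values measure the spread between pools.

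Named genes were the 12 largest called differences per direction with groups that did not overlap, from each list the 3 members of lowest unadjusted p, the 6 largest interactions per direction at an unadjusted p under 0.01, list members of opposite sign in the genotypes called in either, the gate genes and *Runx3*. *A830035O19Rik*, *Cd163*, *Trem2*, *Sirpa*, *Cadm1*, *H2-Aa* and *Bst2* were named after their values were seen. The 35 lists held 486 genes, 461 with a row. The comparison, lists and rules were chosen with earlier results of these data known. Promoters came from RefSeq (GRCm38.p6). The fit was tested on simulated data.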

Additional observations from a re-analysis of the deposited data

Results flagged for a closer look

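Among 129 named genes tested in the 4 Runx3Δ RM samples, 9 (6.98%) had a sample whose gap to its nearest neighbour exceeded Dixon's limit, where chance flags about 1 in 20 groups. In replicate 1, from litter 1, these were *Runx3* at 10.18, *Tcf4* at 8.75, *F13a1* at 7.95 and *Adgrl3* at 5.41. In replicate 4 they were *Abcc3* at 10.37, *Selenop* at 12.42, *Mrc1* at 11.77, *Tlr12* at 9.54 and *Tnfsf4* at 5.55. Groups of 3 or fewer samples were not tested in this way.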

How the results depend on the processing

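With litter as a replicate block, 986 genes were higher in Runx3Δ RM and 1004 in Runx3Δ CD11b+ DC, and 1307 were shared with WT. Leaving out 1 sample at a time gave 616 to 1130 and 627 to 922 genes in Runx3Δ, 355 to 944 and 385 to 1010 in WT and 675 to 1533 shared. Fitting each genotype alone gave 367 and 354 genes in WT and 624 shared. Omitting litter 4, chosen after seeing the data like the other litter subsets, gave 527 and 588 in Runx3Δ and 819 shared. Omitting litter 1, which leaves the same number of Runx3Δ samples, gave 998 and 1092 and 1566 shared. Requiring a 2-fold difference left 701 of the 2108 genes. The interaction gave 0 genes in each setting in which it could be fitted. Median centring gave 738 and 1039 genes, so that 41.5% rather than 47% of the calls were higher in RM; without RM replicate 1 it was 55.1%. Signs reversed for genes that were not called. The *Ptprc* difference was -0.0288 with median centring, -0.0263 in litters with both cell types and -0.0263 to 0.0468 with 1 sample left out. That of *Akr1c18* was -0.0680 to 0.391 with 1 sample left out. That of *Kcnq1* was 0.0269 with array weights, 0.108 in litters with both cell types and -0.0979 to 0.108 with 1 sample left out. Of the 24 genes with the largest differences, 22 stayed called in all 22 settings, *Saa3* and *Klri1* being the exceptions. The cause of these changes was not tested, and no setting separates the number of samples from which samples were left out. WT CD11b+ DC had 2 samples and none of litter 1.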
